A study of Mus musculus with 4 samples.

Results

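The genes described here are 38 mouse genes that supply and sense amino acids for protein synthesis. They comprise 20 cytosolic aminoacyl-tRNA synthetases, 7 regulators of the response driven by the transcription factor ATF4, 5 enzymes of amino acid synthesis and 6 amino acid transporters. Members were taken as all probe sets whose single platform gene symbol was on this list, which gave 64 of the 22690 probe sets on the array, for 36 of the 12394 genes with a symbol of their own. No probe set carried Dars or Mars as its single symbol, so the aspartyl- and methionyl-tRNA synthetases are not analysed here. Of the 36 genes, 33 had at least 1 probe set above the filter on low signal, and Trib3, Cth and Slc1a4 had none.

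Osteoclast cultures of 2 genotypes were each profiled on 2 Affymetrix arrays, 4 in all. The NFATc1-deficient cultures came from C57BL/6 mice with the genotype NFATc1 fl/fl MxCre+, in which poly I:C was given to induce excision of Nfatc1. The wild-type cultures came from C57BL/6 mice of the genotype NFATc1 fl/fl MxCre-, so both groups carried the floxed alleles. Mx-Cre is driven by an interferon-inducible promoter that is active in many cell types, so excision was not limited to osteoclasts. Whether the wild-type mice received poly I:C, and the age of the mice, is not stated in the sources used here. In both groups, precursors negative for CD11b, CD3e and B220 and positive for c-Kit and c-Fms were sorted from bone marrow and grown in M-CSF and RANKL, which together induce osteoclasts, until day 3. RNA was pooled from 3 mice for each replicate 1 array and from 4 mice for each replicate 2 array.

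Aminoacyl-tRNA synthetases join each amino acid to its tRNA, the step that supplies charged tRNA to the ribosome. When amino acids run short, uncharged tRNA activates the kinase GCN2, which phosphorylates the initiation factor eIF2, slows translation in general and raises translation of ATF4. ATF4 then binds composite C/EBP-ATF elements and switches on transporters, enzymes of asparagine and serine synthesis, and many synthetases. Because ATF4 is controlled largely at translation, its mRNA need not report its activity. Osteoclasts grow by fusion into large secretory cells.

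Values are MAS5 signals, the authors' linear intensity for a probe set. Changes are log2 differences, NFATc1-deficient minus wild-type, on the log2(signal + 23.3) scale, and adjusted p-values come from limma over all 13577 probe sets tested. Each gene is represented by its brightest tested probe set. Signals of different probe sets are not compared with each other. Nfatc1 itself had signals of 3018.2 and 4097.9 in the NFATc1-deficient cultures, against 5433.6 and 6146.7 in the wild-type cultures (log2 change -0.71, adjusted p = 0.0104), 61.5% of the wild-type mean, and its second probe set stood at 68.5%. The position of its probe sets relative to the excised part was not analysed here. Osteoclast markers were lower for 7 of 7 tested genes, with a summed signal of 19085 to 26174.8 in the NFATc1-deficient and 43638.4 to 49299.4 in the wild-type cultures. Granulocyte markers summed to 15612.2 on NFATc1-deficient replicate 1 and 7469.8 on replicate 2, against 5477.3 and 6056.9 in the wild-type cultures, with 3 of 8 tested genes higher, and none was at 0. Macrophage and monocyte markers summed to 19121.5 and 19081.9 in the deficient cultures, against 23276.5 and 27068.6 in the wild-type cultures, with Cd68 (-0.68) and Csf1r (-0.41) lower and Cd14 (0.54) higher among 7 tested. Progenitor and mast cell markers summed to 1285.1 and 1026.8 in the deficient cultures, against 969.1 and 671.4 in the wild-type cultures, and none of 5 tested passed in limma. Lymphoid markers summed to 597.8 and 552.1 in the deficient cultures, against 483 and 308.8 in the wild-type cultures, with Il7r (1.15) higher among 2 tested. General stress genes also moved, with 4 of 10 higher and 1 lower, among them the chaperone Hspa1b (log2 change 1.94). The part of these markers in the results below was not tested. The ratio of the 3' to the 5' control probe set lay between 0.770 and 0.786 for Gapdh and between 1.22 and 1.29 for Actb on all 4 arrays. The hybridisation controls, transcripts added in fixed amounts, had a higher mean signal on the deficient arrays for 9 of 9 probe sets (1.10-fold to 1.45-fold), and for 6 of them the genotypes did not overlap. In both genotypes the replicate 1 and replicate 2 arrays differed in the sex-linked transcripts. Xist read 727.7 and 20.2 on deficient replicates 1 and 2, against 1114.7 and 13.2 on wild-type replicates 1 and 2. Eif2s3y, on the Y chromosome, read 6.5 and 1049.7 on deficient replicates 1 and 2, against 14.4 and 1146.7 on wild-type replicates 1 and 2.

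The 33 tested genes moved in both directions in the NFATc1-deficient cultures, and their median change was 0.03, the same as the 0.03 over all 7798 genes tested. Of the 33, 6 were higher and 5 lower in the NFATc1-deficient cultures, and 22 did not pass. Over all genes tested 12.9% were higher and 11.9% lower, against 18.2% and 15.2% of these genes, so their share was near the background. Both deficient signals lay above both wild-type signals for 13 of the 33 and below them for 12, and the corresponding shares of all genes were 34.3% and 29.7%. Genes that passed were the cystine transporter Slc7a11, Psat1, Hars, Slc7a5, Slc38a2 and Kars on the higher side, and Slc1a5, Chac1, Asns, Gars and Sars on the lower side. The changes ran from -0.89 for Slc1a5 to 1.03 for Slc7a11. In bulk cultures a lower signal from fewer cells of a type and one from less RNA per cell cannot be told apart. Without NFATc1-deficient replicate 1, the array with the most granulocyte signal, 2 of the genes were higher and 3 lower, beside 6.41% and 7.4% of all genes. With no filter 4 were higher and 3 lower (5.46% and 5.53% of all genes), and without the variance trend 4 and 4 (7.28% and 8.28%). The corresponding counts were 4 and 4 with median scaling (11.8% and 10.8%), 5 and 5 with quantile normalization (13.5% and 13.3%) and 6 and 6 with replicate number as a block (15.2% and 14%). They were 4 and 4 without NFATc1-deficient replicate 2 (9.66% and 10.8%), 5 and 6 without wild-type replicate 1 (14.4% and 12%) and 5 and 4 without wild-type replicate 2 (10.7% and 11.3%).

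**Figure D1:**
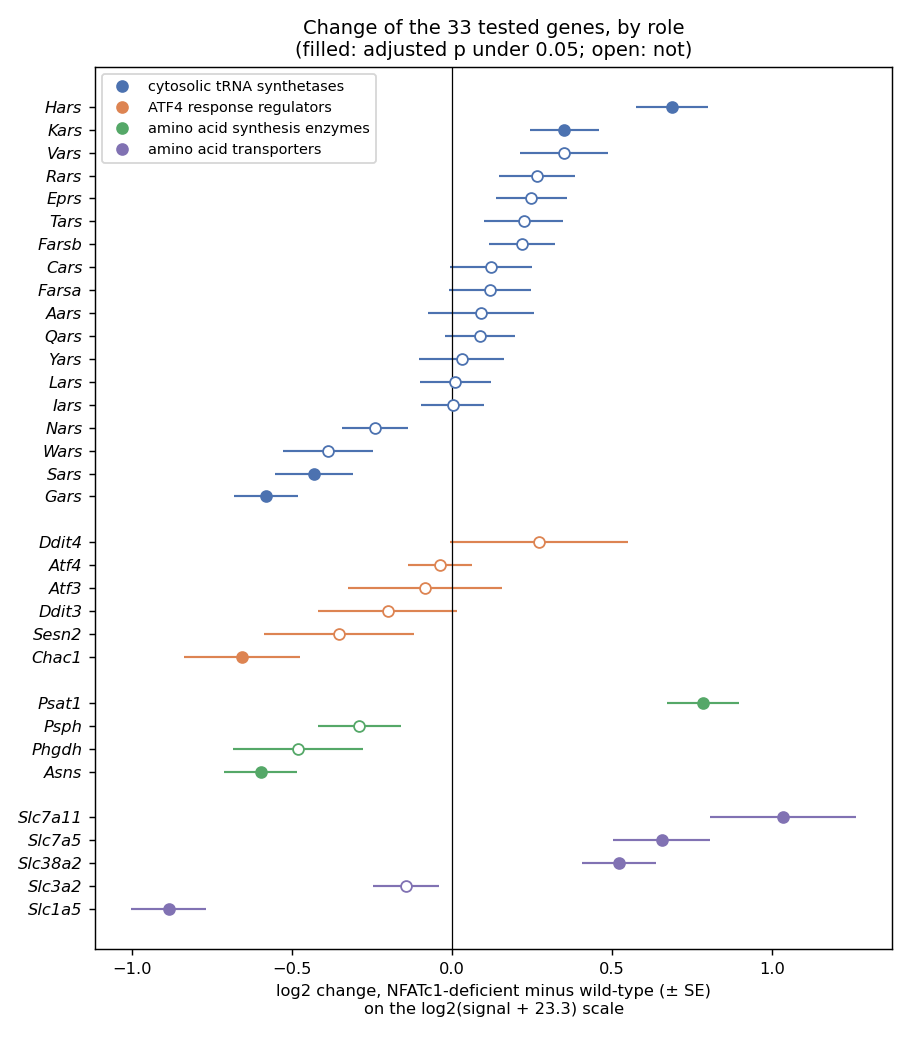
Log2 change of each of the 33 tested genes, NFATc1-deficient minus wild-type, with its standard error, grouped by role (2 arrays per genotype). Filled points had an adjusted p under 0.05, and the transporters span the full range from Slc1a5 at -0.89 to Slc7a11 at 1.03.

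Of 6 regulators of the ATF4 response that were tested, 1 was lower and 5 did not pass. Over all genes tested 11.9% were lower and 12.9% higher. Both deficient signals lay above both wild-type signals for 1 of the 6 and below them for 3, beside 34.3% and 29.7% of all genes. The genotypes overlapped for the other 2. Chac1, which degrades glutathione and is induced through ATF4 in other cell types, had signals of 191 and 185.8 in the NFATc1-deficient cultures, against 280.6 and 342.7 in the wild-type cultures. It fell in the deficient cultures by 0.66 on the log2 scale (SE 0.18, adjusted p = 0.0311), to 60.5% of the wild-type mean. Its call was lost without NFATc1-deficient replicate 1 (adjusted p = 0.0989), without deficient replicate 2 (0.0879), without wild-type replicate 2 (0.134) and with no filter (0.0744), within a range of 0.0145 to 0.134 over the alternatives.

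Atf4, the central transcription factor of the response, had nearly level signals at its brightest probe set. They were 2386.4 and 2423.7 in the NFATc1-deficient cultures and 2503.6 and 2432.3 in the wild-type cultures (log2 change -0.04, adjusted p = 0.829). A second Atf4 probe set read 2384.1 and 2231.6 in the deficient cultures, against 1865.9 and 1623 in the wild-type cultures, and was higher (log2 change 0.40, adjusted p = 0.0338). The probe sets thus disagree on the call, and the name of the second marks it as one with probes that may match other transcripts.

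The remaining regulators did not pass. Ddit3, which encodes the death-associated factor CHOP, read 228 and 156 in the deficient cultures and 210.2 and 231.8 in the wild-type cultures, with groups that overlap (log2 change -0.20, adjusted p = 0.554). Atf3, a partner of ATF4 and a target of it, read 123.9 and 138.4 in the deficient cultures, against 167.7 and 116.9 in wild-type cultures, also with overlap (-0.08, adjusted p = 0.834). The mTORC1 inhibitor Ddit4 had a change of 0.27 (adjusted p = 0.528), and the leucine sensor Sesn2 one of -0.35 (adjusted p = 0.321). Trib3, a pseudokinase that binds ATF4 and is a sensitive marker of its activity, was not bright enough to test, with signals of 44 and 60.9 in the deficient cultures and 53.3 and 10.6 in the wild-type cultures. The standing of such low signals against background is unknown.

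Amino acid synthesis genes split in their direction. Psat1, the aminotransferase of the middle step of serine synthesis, had signals of 2565.7 and 2312.9 in the NFATc1-deficient cultures, against 1474.1 and 1341.1 in the wild-type cultures. It rose by 0.78 on the log2 scale (SE 0.11, adjusted p = 0.00192), 1.73-fold in mean signal, and its second probe set rose by 1.03. Both deficient arrays lay well above both wild-type arrays, and the change was 0.79 in the replicate 1 pair and 0.78 in the replicate 2 pair.

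Asns, the enzyme that makes asparagine and a standard reporter of the amino acid response, moved the other way. Its signals were 1625.8 and 1457.5 in the NFATc1-deficient cultures, against 2478.4 and 2214.7 in the wild-type cultures (log2 change -0.60, SE 0.11, adjusted p = 0.00687). The deficient mean was 65.7% of the wild-type mean, and the replicate changes were -0.60 and -0.60. Its other probe set, one that may match other transcripts, had a change of -0.38 and did not pass (adjusted p = 0.0504).

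The first and last enzymes of serine synthesis did not follow Psat1 past the threshold. Phgdh, which opens the pathway, read 599.7 and 607.5 in the deficient cultures and 1086.2 and 667.4 in the wild-type cultures (log2 change -0.48, adjusted p = 0.124). The gap rested on wild-type replicate 1, since the change was -0.83 in the replicate 1 pair and -0.13 in the replicate 2 pair, and the other 3 Phgdh probe sets had changes of 0.19, 0.29 and -0.23. Psph, which completes the pathway, read 592.8 and 591.1 in the deficient cultures, against 681.8 and 778.9 in wild-type cultures (-0.29, adjusted p = 0.144). Cth, which makes cysteine from cystathionine, was below the filter, with 52.7 and 31 in the deficient and 93.9 and 55.5 in the wild-type cultures.

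The transporters held the extreme changes of the whole list, at both ends. Slc7a11, the cystine-glutamate exchanger xCT, had signals of 164.4 and 188.5 in the NFATc1-deficient cultures, against 74.9 and 73.2 in the wild-type cultures. It rose by 1.03 on the log2 scale (SE 0.23, adjusted p = 0.0123), 2.38-fold in mean signal. The log2 value understates this ratio because the wild-type signals lie close to the pseudocount. Its call was lost without NFATc1-deficient replicate 1 (adjusted p = 0.0540), without deficient replicate 2 (0.0809) and with no filter (0.0510), within a range of 0.000626 to 0.0809. Slc7a11 was too dim for the stricter filter, so it was tested in 12 of the 13 alternatives.

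Slc7a5, the leucine transporter LAT1, read 528.2 and 516.8 in the deficient cultures, against 352.6 and 296.6 in the wild-type cultures (log2 change 0.65, SE 0.15, adjusted p = 0.0152). Slc3a2, the CD98 heavy chain with which both of these light chains pair at the membrane, read 1903.1 and 1802 in the deficient cultures and 2052.2 and 2043.3 in the wild-type cultures (-0.14, adjusted p = 0.358). The light chains were therefore higher while no change of their shared heavy chain was detectable with these arrays. The differences between these genes were not tested.

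Slc1a5, the glutamine transporter ASCT2, had signals of 1041.7 and 1199.7 in the NFATc1-deficient cultures, against 2011.9 and 2161.5 in the wild-type cultures. It fell in the deficient cultures by 0.89 on the log2 scale (SE 0.12, adjusted p = 0.00136), to 53.7% of the wild-type mean, the lowest change among the 33 genes. Slc38a2, the glutamine carrier SNAT2 whose gene responds to amino acid shortage, moved up, with 4291.7 and 3961.3 in the deficient cultures against 3098.8 and 2647.2 in the wild-type cultures (log2 change 0.52, SE 0.12, adjusted p = 0.0127). Both are carriers of neutral amino acids, and in each case the 2 genotypes did not overlap. Slc1a4, which encodes the related carrier ASCT1, was below the filter at each of its 3 probe sets, with 41.1 and 43.8 at the brightest in the deficient and 55.2 and 55.1 in the wild-type cultures. Without NFATc1-deficient replicate 1 none of the 3 higher transporters passed in limma, with adjusted p of 0.0683 for Slc7a5 and 0.0835 for Slc38a2. Slc7a5 was also lost without wild-type replicate 2 (0.0530), and Slc38a2 also with median scaling (0.0735) and without the variance trend (0.0685). Slc1a5 kept its call under all 13 alternatives.

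**Figure D2:**
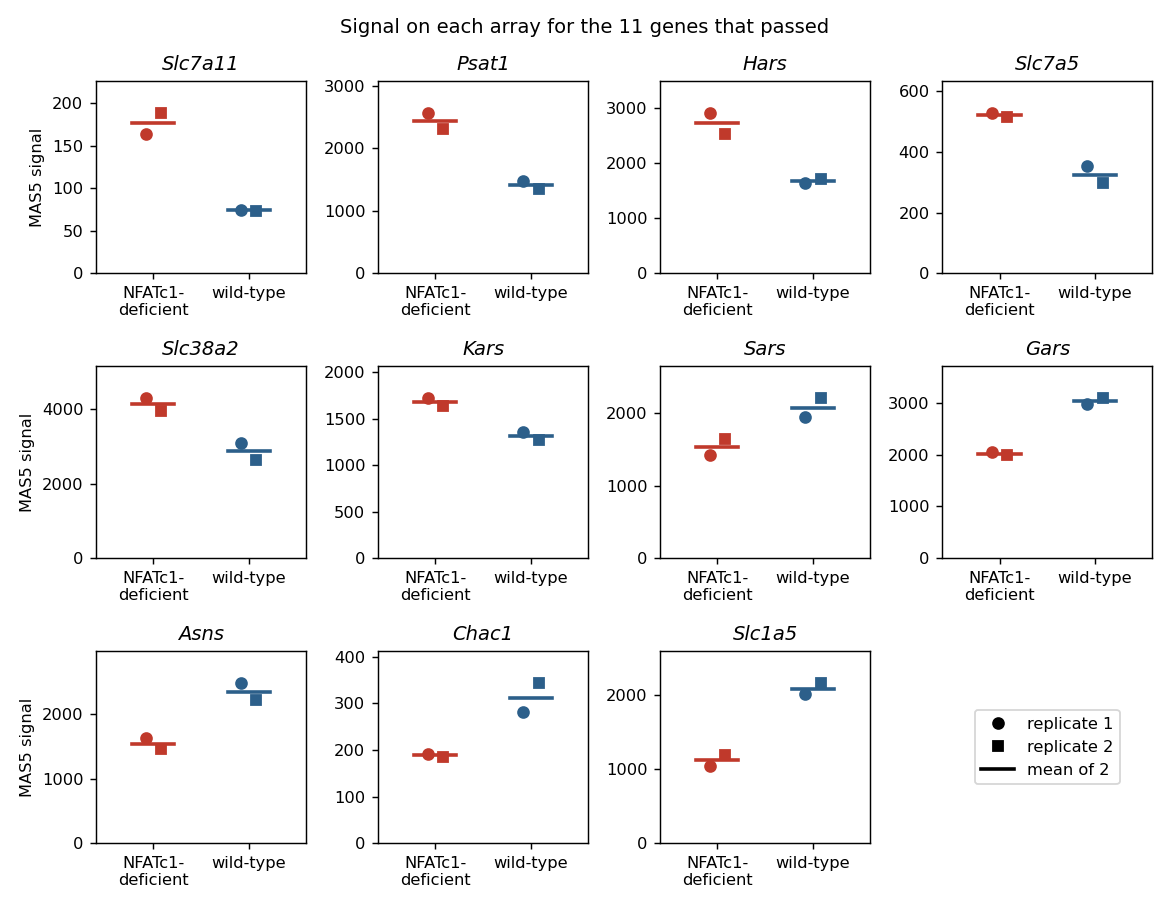
MAS5 signal (linear, from 0) on each array for the 11 genes that passed, with NFATc1-deficient cultures at left and wild-type cultures at right; circles are replicate 1, squares replicate 2 and lines the mean of 2 arrays. In each panel both deficient signals lie on the same side of both wild-type signals, from 164.4 and 188.5 against 74.9 and 73.2 for Slc7a11 to 1041.7 and 1199.7 against 2011.9 and 2161.5 for Slc1a5.

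Of the 18 cytosolic synthetases measured, 2 were higher, 2 lower and 14 did not pass, shares of 11.1% in each direction beside 12.9% and 11.9% of all genes. The median change of the 18 was 0.10, beside 0.03 over all genes tested, and this difference was not tested. Hars, the histidyl-tRNA synthetase, had signals of 2904.7 and 2533.3 in the NFATc1-deficient cultures, against 1634.8 and 1716.6 in the wild-type cultures. It rose by 0.69 (SE 0.11, adjusted p = 0.00341), 1.62-fold in mean signal, while its second probe set had a change of 0.39 and did not pass (adjusted p = 0.0721). Hars2, the mitochondrial counterpart, had a change of 0.13 (adjusted p = 0.680). Kars, the lysyl-tRNA synthetase, which serves both cytosol and mitochondria, read 1720.2 and 1630.9 in the deficient cultures, against 1352.7 and 1266.7 in wild-type cultures (log2 change 0.35, SE 0.11, adjusted p = 0.0457). That value is close to the threshold, and Kars kept the call under 5 of the 13 alternatives (adjusted p up to 0.202 with median scaling, and lost when any 1 of the 4 arrays was left out).

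The glycyl- and seryl-tRNA synthetases were the lower pair. Gars, which also serves both compartments, had signals of 2047.8 and 1996.6 in the NFATc1-deficient cultures, against 2988.1 and 3091.1 in the wild-type cultures. It fell in the deficient cultures by 0.58 (SE 0.10, adjusted p = 0.00441), to 66.5% of the wild-type mean, with replicates close together in each genotype. Sars read 1421.2 and 1646.3 in the deficient cultures, against 1946.5 and 2205.7 in the wild-type cultures (log2 change -0.43, SE 0.12, adjusted p = 0.0327), and its second probe set was lower as well, at -0.49 (adjusted p = 0.0198). The Sars call was lost under 5 alternatives, among them leaving out NFATc1-deficient replicate 1 (adjusted p = 0.187) or wild-type replicate 2 (0.123), within a range of 0.00887 to 0.187.

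Among the synthetases that did not pass, Vars for valine (0.35, adjusted p = 0.103) and Wars for tryptophan (-0.39, adjusted p = 0.0805) came nearest. Wars, which interferon induces in other cells, read 502.1 and 532.4 in the deficient cultures and 622.6 and 750.5 in the wild-type cultures, and its other 3 probe sets had changes of -0.10, -0.54 and -0.37. Rars (0.27), Eprs (0.25) and Tars (0.22) had signals above wild-type on both deficient arrays, and Nars (-0.24) had signals below, but none passed. Farsb, a subunit of the phenylalanyl-tRNA synthetase, had a change of 0.22 at its brightest probe set and of -0.10, -0.24 and 0.40 at the others, none of which passed, so no direction is given. Changes of Cars (0.12), Farsa (0.12), Aars (0.09), Yars (0.03) and Lars (0.01) were smaller than their standard errors. The second Aars probe set had a change of -0.15 and did not pass (adjusted p = 0.557). Iars, the isoleucyl-tRNA synthetase, was level at its brightest probe set, with 2709.2 and 2731.2 in the deficient cultures and 2732 and 2702.3 in the wild-type cultures. Its second probe set read 2708.5 and 2981 in the deficient cultures, against 2504 and 2527 in wild-type cultures, and did not pass (0.17, adjusted p = 0.271).

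Qars, the glutaminyl-tRNA synthetase, gave conflicting readings. At its brightest probe set the signals were 2817 and 2712.8 in the NFATc1-deficient cultures and 2429.8 and 2786 in the wild-type cultures (log2 change 0.09, adjusted p = 0.622). A second probe set was higher, at 2910.8 and 2486.6 in the deficient cultures against 1623.8 and 1855.6 in wild-type cultures (0.63, adjusted p = 0.00768). Another probe set was lower, at 840.9 and 757.6 in the deficient cultures against 1734.9 and 1295 in wild-type cultures (-0.89, adjusted p = 0.00422). Both of these are of the kind with probes that may match other transcripts, and no direction is given for Qars. Of 14 genes with several tested probe sets, 7 had at least 1 that differed from the brightest in sign or in call. Of the 10 probe sets that differed, 6 were of this less specific kind, beside 12 of all 64 probe sets of these genes. The brightest probe sets of 3 genes, Farsb, Phgdh and Wars, were also of this kind. The Farsb probe sets that differed from the brightest were not. Whether the kind of probe set accounts for the differences was not tested.

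**Figure D3:**
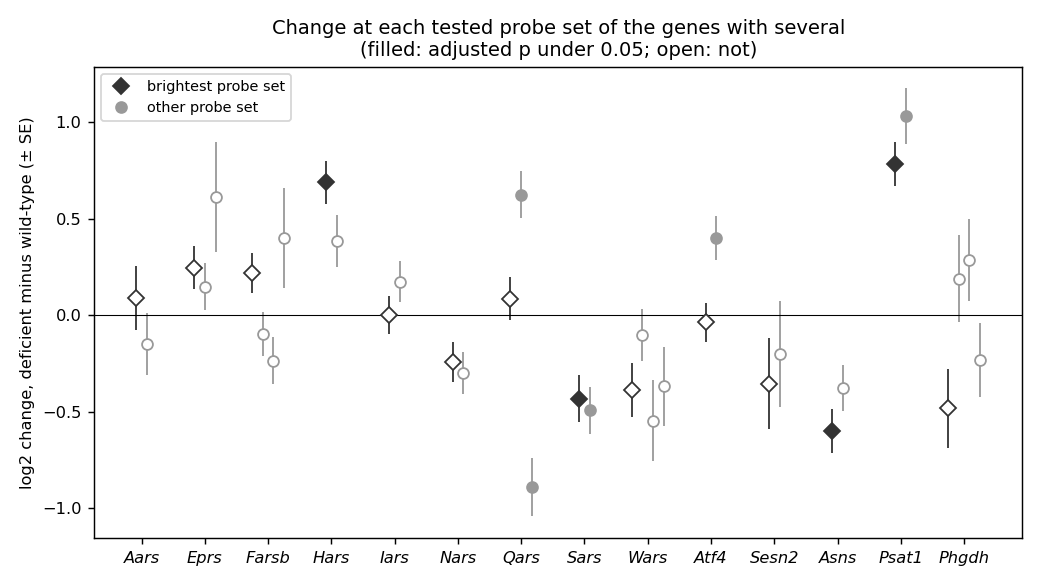
Log2 change, NFATc1-deficient minus wild-type, with its standard error at each tested probe set of the 14 genes with several; diamonds are the brightest probe set and circles the others, filled where the adjusted p was under 0.05. The Qars probe sets stand at 0.09, 0.63 and -0.89, whereas both Sars probe sets and both Psat1 probe sets share a side and a call.

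Promoters were read for the short element through which ATF4 acts. RefSeq promoter sequences (GRCm38.p6, from 250 bases before to 50 bases after the start) were found for 27 of the 38 genes, as 28 promoters. The core of the C/EBP-ATF element, TGATGNAA, was searched on both strands. It occurred in 11 of the 27, against 3.97% of all 32851 promoters in the table and 3.60% of the 21263 from protein-coding genes. The list holds many genes known as ATF4 targets, so this share describes how the list was composed. The 11 were Aars, Gars, Iars, Tars, Yars, Atf3, Trib3, Chac1, Asns, Slc7a11 and Slc1a4. The element was present in 3 of the 4 lower genes with a promoter in the table (Asns, Gars and Chac1, not Sars), in 1 of the 4 higher genes (Slc7a11, not Psat1, Kars or Slc38a2) and in 5 of the 15 that did not pass. These counts are too small for a comparison and are given as a description.

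The 4 genes that both passed and held the element are shown, so that its position and its open letter N can be read in each. Psat1, Kars, Slc38a2 and Sars passed and had promoters without it, which are not printed. The sequences run 5′ to 3′ on the gene's strand, with the element in capitals. They are Asns at chr6:7693160-7693459 on the minus strand, Chac1 at chr2:119350992-119351291 on the plus strand, Gars at chr6:55037751-55038050 on the plus strand and Slc7a11 at chr3:50443564-50443863 on the minus strand.
Asns: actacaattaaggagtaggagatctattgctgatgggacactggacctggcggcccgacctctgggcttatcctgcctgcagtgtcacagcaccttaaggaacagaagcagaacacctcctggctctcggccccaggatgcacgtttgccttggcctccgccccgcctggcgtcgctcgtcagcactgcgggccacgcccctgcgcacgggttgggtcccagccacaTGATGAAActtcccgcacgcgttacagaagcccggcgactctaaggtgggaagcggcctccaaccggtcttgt
Chac1: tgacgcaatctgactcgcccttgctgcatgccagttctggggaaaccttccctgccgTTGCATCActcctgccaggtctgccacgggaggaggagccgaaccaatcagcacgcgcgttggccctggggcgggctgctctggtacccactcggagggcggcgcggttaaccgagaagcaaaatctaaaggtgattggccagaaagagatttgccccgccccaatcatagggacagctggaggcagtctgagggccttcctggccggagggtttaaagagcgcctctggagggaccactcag
Gars: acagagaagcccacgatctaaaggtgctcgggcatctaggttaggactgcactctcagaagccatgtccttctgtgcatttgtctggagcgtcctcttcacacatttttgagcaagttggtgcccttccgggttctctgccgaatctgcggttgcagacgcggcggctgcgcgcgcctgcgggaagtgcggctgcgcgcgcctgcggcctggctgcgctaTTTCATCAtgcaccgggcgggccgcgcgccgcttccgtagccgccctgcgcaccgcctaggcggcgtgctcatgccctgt
Slc7a11: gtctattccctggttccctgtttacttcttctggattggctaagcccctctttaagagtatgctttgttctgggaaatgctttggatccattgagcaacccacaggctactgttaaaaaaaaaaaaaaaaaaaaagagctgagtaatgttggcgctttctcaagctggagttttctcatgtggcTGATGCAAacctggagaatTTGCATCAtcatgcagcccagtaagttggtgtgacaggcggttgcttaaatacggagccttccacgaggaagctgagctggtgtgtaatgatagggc
In Asns the capitals read TGATGAAA and begin at position -23 from the start site, in Gars they read TTTCATCA from -30, and in Chac1 TTGCATCA from -193. Slc7a11 holds 2 copies in opposite orientation, TGATGCAA from -66 and TTGCATCA from -47. The fixed letters of TGATGNAA are shared because these promoters were chosen for holding it. Read on the strand with TGATG, the open letter N was A in Asns and Gars, which were lower. It was C in Chac1, which was lower, and in both copies of Slc7a11, which was higher. The E-box CACGTG, bound by MYC and TFE factors, occurred in 4 of the 27 (7.15% of all promoters), and the NFAT core GGAAA in 14 of the 27 (61.3% of all promoters), again on both strands. In none of these promoters did the C/EBP-ATF letters overlap those of either other motif.

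Genes around the list were counted from the same fit. The counts are of few genes, and over all genes tested 12.9% were higher and 11.9% lower. All 3 scaffold proteins of the multi-synthetase complex had positive changes, and 2 passed, Eef1e1 (AIMP3, log2 change 0.59, adjusted p = 0.00485) and Aimp2 (0.35, adjusted p = 0.0415). Of 7 mitochondrial synthetases tested 2 were lower, Fars2 (-0.90) and Sars2 (-0.70), and none was higher. The cytosolic Sars was lower as well, but other cytosolic and mitochondrial counterparts differed in call. Beside Fars2, Farsa (0.12) and Farsb (0.22) did not pass. Hars (0.69) was higher, while Hars2 (0.13) did not pass. Among 12 further reported ATF4 targets, 3 were lower and 1 higher. These were the stress protein Nupr1 (-1.22), the ER degradation factor Herpud1 (-0.50) and the mitochondrial folate enzyme Mthfd2 (-0.35), and on the higher side the mitochondrial serine hydroxymethyltransferase Shmt2 (0.46). The Nupr1 signals varied in the deficient cultures, at 156.6 and 54.7 against 233.3 and 273.7 in wild-type cultures.

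Of 13 tested genes for eIF2 kinases, their phosphatase and translation control, 3 were lower and none higher, beside 11.9% and 12.9% of all genes. They were Eif4ebp1, the translation repressor 4E-BP1 and itself a reported ATF4 target (-0.53), Eif2ak3, the ER stress kinase PERK (-0.43), and Eif2b4, a subunit of the eIF2 exchange factor (-0.40). Eif2ak4, which encodes GCN2, had a change of 0.27 (adjusted p = 0.487). Of 15 further amino acid enzymes, 3 were lower and 2 higher. Got1, the cytosolic aspartate aminotransferase, read 593.1 and 543.2 in the deficient cultures, against 1591.6 and 1878.4 in the wild-type cultures (-1.57, adjusted p = 0.000209), a larger change than that of any of the 33 genes. Asl (-0.57) was also lower, as was Bckdk (-0.41), named after its value was seen, while the serine hydroxymethyltransferase Shmt1 (0.84) and the glutamine synthetase Glul (0.58) were higher. None of 7 further amino acid transporters passed in limma. Among 16 genes of amino acid sensing by mTORC1, Lamtor3 was lower (-0.44) and the GTPase Rheb higher (0.38). Of the genes in these last 2 paragraphs that passed, Eef1e1, Fars2, Got1 and Shmt1 kept their call under all 13 alternatives. Each of the others lost it with at least 1 array left out, except Bckdk, for which the alternatives were not run.

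The change within each replicate pair is given to show how much it varied. For the 11 genes that passed a shared direction in both pairs follows from their selection on these arrays and is no separate evidence. Hars changed by 0.82 in the replicate 1 pair and 0.56 in the replicate 2 pair, Slc7a5 by 0.55 and 0.76, and Chac1 by -0.50 and -0.81. Slc1a5 (-0.93 and -0.84), Gars (-0.54 and -0.62) and Kars (0.34 and 0.36) were closer. Ddit3 and Atf3 turned sign between the pairs, with 0.11 and -0.51 for Ddit3 and -0.38 and 0.21 for Atf3.

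**Figure D4:**
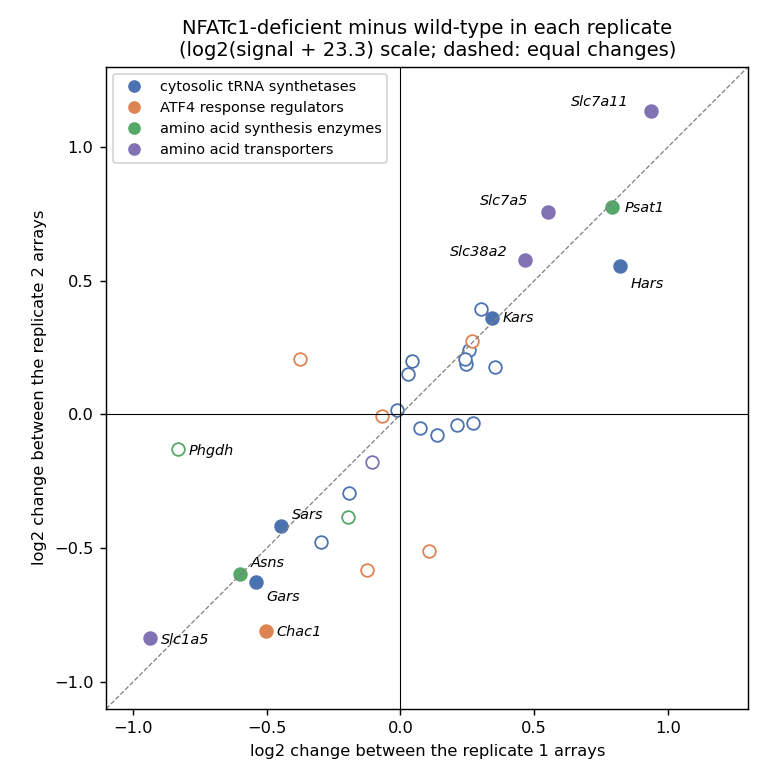
Log2 change of each of the 33 genes in the replicate 1 pair of arrays (horizontal) and in the replicate 2 pair (vertical), NFATc1-deficient minus wild-type, coloured by role and filled where the adjusted p was under 0.05. The 11 filled points lie in the lower left or upper right quadrant near the dashed line of equal change, and Phgdh (-0.83 and -0.13) lies away from it.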

How the data were processed

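The authors deposited 1 linear intensity per probe set and array, made with MAS5 per the submitters' processing notes. Each array had been scaled, and its mean, trimmed by 2% at each end, was 500.186 to 500.211. Neither the version of MAS5 nor its detection calls are given in the sources used here. Symbols came from the platform annotation: 20393 of 22690 probe sets had 1 symbol, 691 several and 1606 none.

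Signals were analysed as log2(signal + 23.3), the 25th percentile of all values, which understates changes of dim genes. After 64 control probe sets were left out, those with a mean signal above the 40th percentile (61.95) were kept, 13577 in all. They were fitted with limma 3.58.1 in R 4.3.3 (lmFit, then eBayes with trend) as NFATc1-deficient minus wild-type, two-sided, with Benjamini-Hochberg adjustment over all of them at 0.05. The brightest tested probe set stood for a gene. With 2 arrays per genotype the number of arrays limits precision. The p-values rest on the spread between pools, which limma draws toward the trend with signal over all probe sets tested. The limma model was tried on simulated arrays with known changes, in code separate from that of the results. The condition it had to meet was set on changes larger than any of these genes showed. The motif scan was not tried in this way.

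All 38 genes are accounted for. Those of the 38 that passed, and any with a change of at least 0.5, were to be given by array. Of each related list, up to 4 genes that passed, those with the largest changes, were to be named. Members, lists and tests were chosen with earlier results of these data known. Motifs were scanned with Python 3.11.15. Alternatives covered scaling, pseudocount, filter, variance trend, replicate block, averaging of probe sets and leaving out each array.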

Additional observations from a re-analysis of the deposited data

How the results depend on the processing

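Of the 11 genes that passed, 5 (Psat1, Hars, Slc1a5, Asns and Gars) kept their call under all 13 alternatives. None of the 11 turned its sign under any alternative in which it was tested, and Slc7a11 was not tested with the stricter filter. Over the 33 genes the count higher, 6, became 2 to 5 when 1 array was left out, and the count lower, 5, became 3 to 6 and was 3 with no filter. Leaving out 1 array gave 0 to 3 higher transporters, 0 to 1 lower regulators, 1 to 2 lower synthesis enzymes, and 1 to 2 higher and 1 to 3 lower synthetases. The count of higher synthetases was 1 with median scaling, with quantile normalization, with no filter and without the variance trend, and that of lower synthetases 1 with median scaling, with no filter and without the variance trend. No regulator was lower with no filter, which raises the number of probe sets adjusted over. The counts by role are out of 18 synthetases, 6 regulators, 4 synthesis enzymes and 5 transporters tested. The shares of all genes that passed also changed between these settings, as given above beside the counts of the 33 genes. A changed count is therefore not particular to these genes. The median change of the genes was 0.0094 to 0.12 with 1 array left out. Direction turned for genes that did not pass: with the mean of all probe sets Aars had -0.028, Qars -0.059 and Atf4 0.18, and with quantile normalization Lars had -0.014. With 1 array left out the ranges crossed 0 for Aars (-0.12 to 0.30), Atf3 (-0.31 to 0.14), Ddit3 (-0.44 to 0.042), Iars (-0.0062 to 0.0094), Lars (-0.076 to 0.10), Qars (-0.011 to 0.18) and Yars (-0.071 to 0.13). Leaving out wild-type replicate 1 added Wars (adjusted p = 0.0427), and leaving out wild-type replicate 2 added Rars (0.0351) and Phgdh (0.00191), against 0.0805, 0.144 and 0.124 with all 4 arrays. Other than where construction is named, the cause was not tested.

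Same-numbered arrays shared the pool size (3 or 4 mice) and the pattern of sex-linked transcripts, which were balanced over the genotypes. Their deviations from the group means correlated at 0.13, and the labels name no shared litter or day. With replicate number as a block all 11 genes kept their call and Phgdh was added, which made 2 lower synthesis enzymes. The median change was 0.03 with the block, and over all genes 1182 were higher and 1093 lower, against 1005 and 931 without it. With no filter 677 and 685 of 12393 genes passed, without the variance trend 568 and 646 of 7798, and without NFATc1-deficient replicate 1 500 and 577. Signal near the pseudocount limits what can be said of Trib3, Cth and Slc1a4.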
